A study of Mus musculus with 6 samples.

Results

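The 9 genes described here encode nuclear subunits of the membrane sector (Fo) and of the peripheral stalk of mitochondrial ATP synthase. They were found by matching the Ensembl identifiers of the deposited table to the symbols *Atp5g1*, *Atp5g2*, *Atp5g3*, *Atp5f1*, *Atp5h*, *Atp5j*, *Atp5j2*, *Atp5k* and *Atp5l*. All 9 were found among 55774 entries, and all 9 were among the 11924 genes expressed highly enough to be tested. Wild-type ICR mouse embryos at the 2-cell stage were kept for 75 hours in CZB medium that contained vesicles isolated from human oviductal fluid, and RNA was sequenced from pools of 10 blastocysts. In the oEV-EMT group (3 libraries) the vesicles came from women with endometriosis. In the oEV-ctrl group (3 libraries) they came from women without it, whom the sample labels describe as having uterine fibroids and the study's methods as having cervical intraepithelial neoplasia. Both groups therefore received human vesicles, and no library came from embryos cultured without them.

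ATP synthase makes ATP from ADP and phosphate with the energy of protons flowing back across the mitochondrial inner membrane. In the membrane, protons turn a ring of identical c subunits, and the ring turns a central shaft inside F1, the catalytic head in the matrix. The peripheral stalk holds F1 still against the turning ring. Small accessory subunits at the foot of the stalk, among them e, f and g, shape the membrane and hold pairs of the enzyme together along the edges of the cristae. The blastocyst, with its outer trophectoderm and inner cell mass, is the stage at which the mouse embryo comes to rely more on oxidative phosphorylation.

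Expression values are FPKM, fragments scaled to transcript length and to the fragments of the library, so that levels of different genes can be set side by side. *Atp5k* and *Atp5l*, which encode the accessory subunits e and g, and *Atp5j*, which encodes coupling factor 6 of the stalk, had their 3 lowest values in the 3 oEV-EMT libraries, at 40.3%, 46.6% and 51.9% of the oEV-ctrl mean. *Atp5g2*, a gene for subunit c, was higher in all 3 oEV-EMT libraries, at 149% of the oEV-ctrl mean. In the other 5 genes the groups overlapped. None of these differences passed the test over all genes (limma on log2(FPKM + 1), an adjusted p of at most 0.05 and a log2 fold change of at least 1 in size), by which 0 of 11924 genes, or 0%, were called. At an unadjusted p of at most 0.05, 1831 genes were counted, and library quality weights, an alternative fit, called 104 genes. With DESeq2 on counts and the same thresholds, the study itself reported called genes in both directions.

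The groups were separate with oEV-EMT lower in 3 of the 9 genes, against 4.34% of all genes tested, and with oEV-EMT higher in 1 of 9, against 18.1% of all genes tested. At an unadjusted limma p of at most 0.05, 3 of the 9 were lower in oEV-EMT, where 2.55% of all genes were, and 1 was higher, where 12.8% were. The 9 genes were picked with results of these libraries known, so these counts carry no test. The median log2 fold change of all genes tested was 0.17, and values called relative have this median subtracted. After median-of-ratios scaling the all-gene median was 0.01, and the split of genes at that p was 767 higher and 763 lower in place of 1527 and 304. The relative median of the 9 genes was -0.39, with 8 of 9 below the all-gene median and *Atp5g2* above it.

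**Figure D1:**
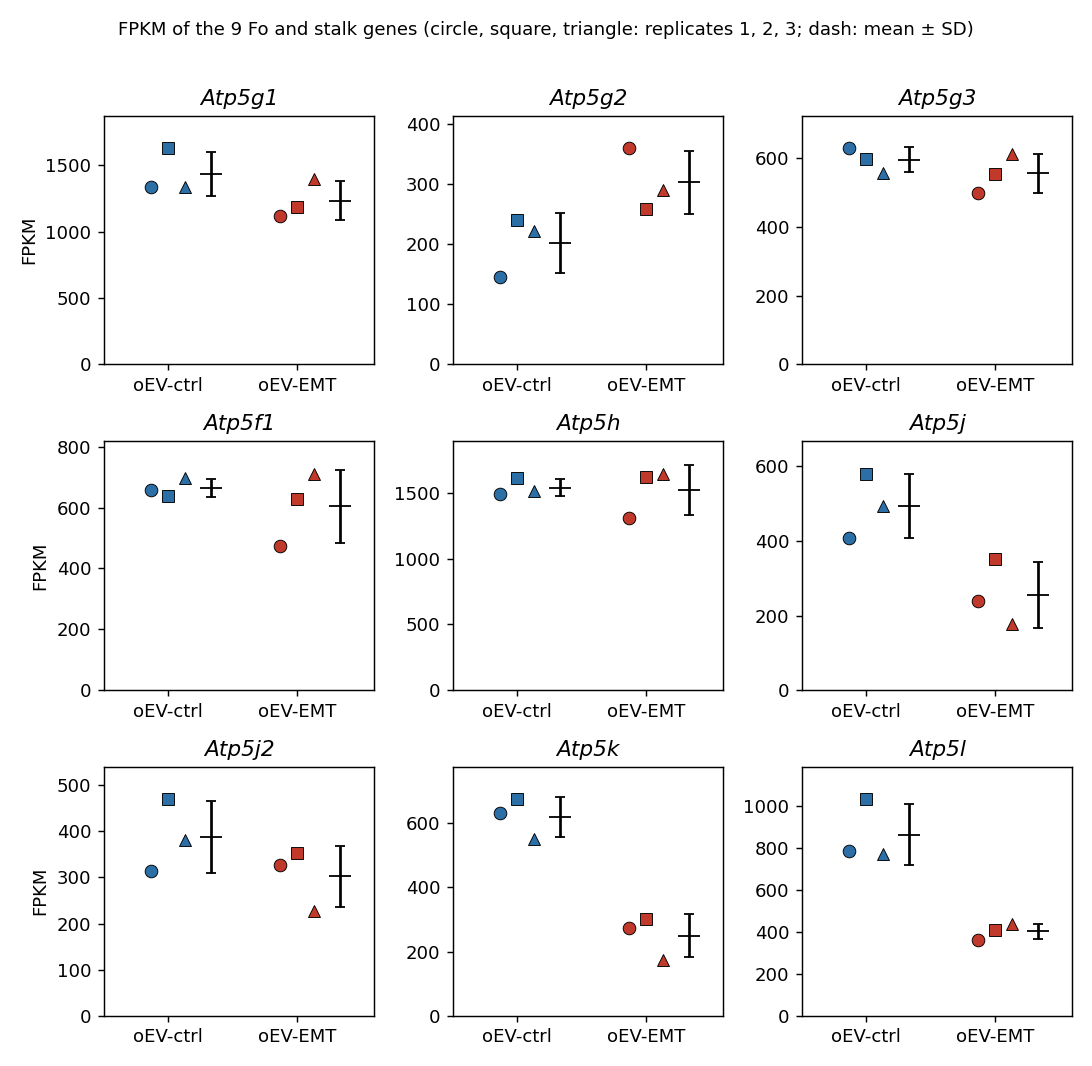
FPKM of each of the 9 genes (vertical axes, each starting at 0) in the oEV-ctrl (blue) and oEV-EMT (red) libraries, with circles, squares and triangles for replicates 1, 2 and 3 and a dash with bars for the mean ± SD of 3 libraries. *Atp5j*, *Atp5k* and *Atp5l* separate with oEV-EMT below, *Atp5g2* with oEV-EMT above, and the other 5 overlap.

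*Atp5k* (ENSMUSG00000050856, minus strand, chr5:108433244-108434448 of GRCm38) had the largest difference of the 9. Its FPKM was 273, 301 and 174 in oEV-EMT replicates 1, 2 and 3, and 632, 675 and 552 in oEV-ctrl replicates 1, 2 and 3. The highest oEV-EMT library thus stayed below the lowest oEV-ctrl library, with oEV-EMT 3 the lowest of all. The means were 249.6 ± 66.6 and 619.7 ± 62.5 FPKM (SD, n = 3 each). On the log2 scale the difference was -1.34 (standard error 0.23, limma, adjusted p = 0.0951), or -1.51 relative to all genes.

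*Atp5l* (ENSMUSG00000038717, minus strand, chr9:44912557-44920742) encodes subunit g, the neighbour of subunit e in the membrane. It was measured at 363, 408 and 436 FPKM in oEV-EMT and at 786, 1031 and 772 FPKM in oEV-ctrl. The oEV-EMT libraries lay close together, and the spread was wider in oEV-ctrl because of replicate 2. The log2 fold change was -1.09 (standard error 0.19, limma, adjusted p = 0.0951). In oEV-ctrl *Atp5l* ranked above *Atp5f1* and *Atp5g3*, and in oEV-EMT below both, in each case without overlap of the library ranges. These ranks are of the FPKM as listed, which copies of its sequence elsewhere in the genome, described below, may have lowered. Summed with 14 genes that share its sequence, *Atp5l* had 1005 ± 131 FPKM in oEV-EMT (SD, n = 3). The listed means of *Atp5f1* and *Atp5g3* there were lower, at 605 and 556 FPKM.

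*Atp5j2* (ENSMUSG00000038690, chr5:145183698-145192062) encodes subunit f, the third accessory subunit of the membrane sector. Its FPKM was 327, 353 and 227 in oEV-EMT and 313, 469.6 and 381 in oEV-ctrl. The ranges overlapped, and the log2 fold change of -0.36 had a 95% interval from -0.88 to 0.15 (limma, adjusted p = 0.477). After median-of-ratios scaling the groups of *Atp5j2* no longer overlapped and 4 of the 9 genes were lower in all oEV-EMT libraries, where 10.3% of all genes then were.

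*Atp5j* (ENSMUSG00000022890, minus strand, chr16:84827866-84835625) encodes coupling factor 6, a small soluble subunit of the stalk. The oEV-EMT libraries had 239.6, 352 and 177 FPKM and the oEV-ctrl libraries 407, 581 and 493 FPKM. The groups did not overlap, although each spread widely around its mean of 256 ± 88.7 and 494 ± 86.9 FPKM (SD, n = 3 each). The log2 fold change was -0.99 (standard error 0.26) with a 95% interval from -1.57 to -0.40 (limma, adjusted p = 0.164). For each of *Atp5j*, *Atp5k*, *Atp5l* and *Atp5g2* the exact two-sided permutation test gave p = 0.1, the smallest that 3 libraries against 3 allow.

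The other stalk genes behaved differently from *Atp5j*. *Atp5h* (ENSMUSG00000034566, chr11:115415689-115419962) encodes subunit d and had the highest mean of the 9 in both groups. It stood at 1309, 1622 and 1648 FPKM in oEV-EMT and at 1495, 1618 and 1513 FPKM in oEV-ctrl. Its ranges overlapped, and the log2 fold change of -0.02 had a 95% interval from -0.41 to 0.37 (limma, adjusted p = 0.963). *Atp5f1* (ENSMUSG00000000563, chr3:105942698-105960099), for subunit b, the long helix of the stalk, gave 474, 629 and 712 FPKM in oEV-EMT against 659, 639 and 697 FPKM in oEV-ctrl. oEV-EMT 1 and 2 lay below the oEV-ctrl range and oEV-EMT 3 above it, and the log2 fold change of -0.16 had a 95% interval from -0.60 to 0.28 (limma, adjusted p = 0.737).

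A ratio within a library does not depend on how libraries are scaled. *Atp5k* was 0.167 ± 0.0541 of *Atp5h* in oEV-EMT and 0.402 ± 0.0320 in oEV-ctrl (SD, n = 3 each). The ratio to *Atp5h* was 0.264 ± 0.0128 in oEV-EMT and 0.558 ± 0.0694 in oEV-ctrl for *Atp5l*, and 0.169 ± 0.0562 and 0.319 ± 0.0439 for *Atp5j*, without overlap of the groups. Against the same denominator *Atp5g2* stood at 0.204 ± 0.0626 in oEV-EMT and 0.131 ± 0.0289 in oEV-ctrl, also without overlap. *Atp5g1*, whose FPKM overlapped, did not overlap as a ratio to *Atp5h*, at 0.812 ± 0.0695 in oEV-EMT and 0.929 ± 0.0687 in oEV-ctrl. *Atp5j2*, *Atp5g3* and *Atp5f1* overlapped on this measure. *Atp5h* itself held 28.0 ± 1.44% of the FPKM summed over the 9 genes in oEV-EMT and 22.7 ± 0.954% in oEV-ctrl (SD, n = 3 each), without overlap. The FPKM of *Atp5h* overlapped, with a log2 fold change of -0.02, while the sum over the 9 genes was lower in oEV-EMT. That sum does depend on scaling. As deposited it was 5435 ± 408 FPKM in oEV-EMT and 6806 ± 590.2 FPKM in oEV-ctrl without overlap, but as a percentage of all FPKM of the library the groups overlapped, at 0.384, 0.419 and 0.419 against 0.413, 0.556 and 0.473.

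The starts of *Atp5j*, *Atp5k* and *Atp5l* are shown because these 3 genes were lower together. Each sequence is the 250 bases before a RefSeq start on GRCm38.p6, read 5′ to 3′ on the gene's own (minus) strand, and *Atp5j* has 2 RefSeq starts. Capitals mark exact matches on either strand to 6 motifs. The motif of the ETS family of factors was searched as CCGGAAG. For NRF1, a regulator of nuclear genes of mitochondrial proteins, the letters were CATGCGC. For the factor YY1 they were ATGGCGG, for the factor SP1 they were GGGCGG, for the factor NFY they were CCAAT and for the binding site of the TATA box they were TATAAA.
Atp5k, chr5:108434400-108434649: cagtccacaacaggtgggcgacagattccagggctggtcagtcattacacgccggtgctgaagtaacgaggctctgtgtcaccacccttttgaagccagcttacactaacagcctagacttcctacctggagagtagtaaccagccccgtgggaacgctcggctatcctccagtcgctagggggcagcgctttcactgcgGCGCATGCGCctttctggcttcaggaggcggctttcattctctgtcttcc
Atp5l, chr9:44920743-44920992: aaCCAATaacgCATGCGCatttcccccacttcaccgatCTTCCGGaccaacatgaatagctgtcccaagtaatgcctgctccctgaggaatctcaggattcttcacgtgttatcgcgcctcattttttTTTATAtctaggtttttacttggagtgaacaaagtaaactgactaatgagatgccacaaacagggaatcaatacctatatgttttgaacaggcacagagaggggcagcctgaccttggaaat
Atp5j, first start, chr16:84835626-84835875: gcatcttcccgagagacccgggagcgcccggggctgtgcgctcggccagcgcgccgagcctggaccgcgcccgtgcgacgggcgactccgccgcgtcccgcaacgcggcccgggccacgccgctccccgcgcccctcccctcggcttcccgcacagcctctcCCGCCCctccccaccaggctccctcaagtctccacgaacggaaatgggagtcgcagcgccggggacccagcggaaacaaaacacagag
Atp5j, second start, chr16:84834977-84835226: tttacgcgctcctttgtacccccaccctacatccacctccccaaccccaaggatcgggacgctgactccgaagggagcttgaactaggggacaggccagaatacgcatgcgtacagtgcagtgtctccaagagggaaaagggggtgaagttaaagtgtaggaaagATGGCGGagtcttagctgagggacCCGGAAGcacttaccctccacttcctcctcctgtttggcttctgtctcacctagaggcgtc

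The NRF1 motif was found before *Atp5k*, *Atp5l* and also *Atp5g2*, whose values lay the other way, and in 3.24% of all 32851 windows of this length. The ETS motif was found before *Atp5j*, *Atp5l* and *Atp5h* and in 6.91% of all windows. YY1 matched only at the second start of *Atp5j* among the 9 genes, and in 2.21% of all windows. The commoner motifs were SP1, before *Atp5f1* and *Atp5j* (32.7% of all windows), NFY, before *Atp5g1*, *Atp5g3*, *Atp5h*, *Atp5j2* and *Atp5l* (33.8%), and the TATA box, before *Atp5l* (12.4%). None of the 6 motifs was found before all of *Atp5j*, *Atp5k* and *Atp5l*. The 10 windows of the 9 genes had a median GC content of 56.8% and 15 CpG, against 52.4% and 6 over all windows.

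*Atp5j* overlaps in the annotation with *Gabpa*, a gene on the opposite strand that encodes an ETS family transcription factor. *Gabpa* had 34.0 ± 5.74 FPKM in oEV-EMT and 22.6 ± 4.61 FPKM in oEV-ctrl (SD, n = 3 each; limma, adjusted p = 0.277). Whether reads were counted by strand was not given in the sources used here, and without strand reads in an overlap cannot be told apart. *Atp5f1* likewise overlaps on the opposite strand with *Wdr77*, at 34.0 ± 14.8 FPKM in oEV-EMT and 44.7 ± 16.6 FPKM in oEV-ctrl (SD, n = 3 each). Both neighbours were far below *Atp5j* and *Atp5f1* in level.

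Subunit c is encoded by *Atp5g1* (chr11:96068852-96075670), *Atp5g2* (chr15:102662864-102672352) and *Atp5g3* (chr2:73908447-73911326), which carry different import sequences in front of the same mature protein. The last 78 codons of the 3 reading frames encode the same residues and are shown because the genes differ there at the level of bases alone. Capitals mark the 63 of 234 positions at which the 3 genes are not all alike, in GENCODE M21 transcripts on GRCm38, read 5′ to 3′ on the minus strand and each spliced from 2 exons.
Atp5g1, chr11:96073107-96073644: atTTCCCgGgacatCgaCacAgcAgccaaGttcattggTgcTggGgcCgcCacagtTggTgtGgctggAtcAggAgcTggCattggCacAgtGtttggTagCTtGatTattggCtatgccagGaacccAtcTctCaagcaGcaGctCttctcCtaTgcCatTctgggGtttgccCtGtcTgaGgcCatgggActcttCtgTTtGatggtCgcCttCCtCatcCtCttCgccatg
Atp5g2, chr15:102663017-102665175: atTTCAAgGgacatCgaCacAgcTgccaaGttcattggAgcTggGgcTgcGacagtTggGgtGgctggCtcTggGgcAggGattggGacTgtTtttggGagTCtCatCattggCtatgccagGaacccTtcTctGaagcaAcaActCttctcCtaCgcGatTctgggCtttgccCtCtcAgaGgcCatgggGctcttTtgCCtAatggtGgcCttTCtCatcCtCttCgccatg
Atp5g3, chr2:73908596-73909305: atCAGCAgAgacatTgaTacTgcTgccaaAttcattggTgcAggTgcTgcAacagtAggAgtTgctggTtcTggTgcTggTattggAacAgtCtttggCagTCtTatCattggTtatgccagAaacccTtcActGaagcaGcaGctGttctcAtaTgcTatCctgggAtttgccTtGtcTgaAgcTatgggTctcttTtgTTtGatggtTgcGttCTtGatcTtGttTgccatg

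*Atp5g1* and *Atp5g2* were 84.6% identical over these bases with a longest identical run of 20 bases. *Atp5g3* was 78.6% identical to *Atp5g1* and 77.4% to *Atp5g2*, with runs of at most 11 and 8 bases. Any stretch of 50 bases from this part therefore differs between the 3 genes.

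*Atp5g1* (ENSMUSG00000006057) was the most abundant of the 3, at 1119, 1186 and 1399 FPKM in oEV-EMT and 1338, 1631 and 1337 FPKM in oEV-ctrl. The groups overlapped through oEV-EMT 3 (log2 fold change -0.22, 95% interval from -0.62 to 0.19, limma, adjusted p = 0.598). *Atp5g3* (ENSMUSG00000018770) was at 499.6, 556 and 613 FPKM in oEV-EMT and 630.0, 599 and 557 FPKM in oEV-ctrl. It too overlapped (log2 fold change -0.10, 95% interval from -0.49 to 0.29, limma, adjusted p = 0.808).

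*Atp5g2* (ENSMUSG00000062683) was, by its listed FPKM, the least abundant of the 9 in oEV-ctrl, at 146, 241 and 222 FPKM, and reached 360.5, 259 and 289.9 FPKM in oEV-EMT. The gap between the groups was narrow, since oEV-EMT 2 lay just above oEV-ctrl 2, and oEV-ctrl 1 was well below the rest. The log2 fold change was 0.60 (standard error 0.24, limma, adjusted p = 0.272), or 0.42 relative to all genes. After median-of-ratios scaling, after upper quartile scaling and with a transcript length offset its groups overlapped.

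The share of the summed subunit c FPKM is free of scaling between libraries. *Atp5g2* held 18.2%, 13.0% and 12.6% of it in oEV-EMT and 6.92%, 9.75% and 10.5% in oEV-ctrl, without overlap. *Atp5g1* held 56.5%, 59.3% and 60.8% in oEV-EMT and 63.3%, 66.0% and 63.2% in oEV-ctrl, lower in every oEV-EMT library. The mean share moved by 5.54 percentage points for *Atp5g2* and by -5.29 for *Atp5g1*, while that of *Atp5g3* overlapped with a difference of -0.24. The summed FPKM of the 3 genes was 2094 ± 180.1 in oEV-EMT and 2234 ± 205 in oEV-ctrl (SD, n = 3 each), and overlapped.

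**Figure D2:**
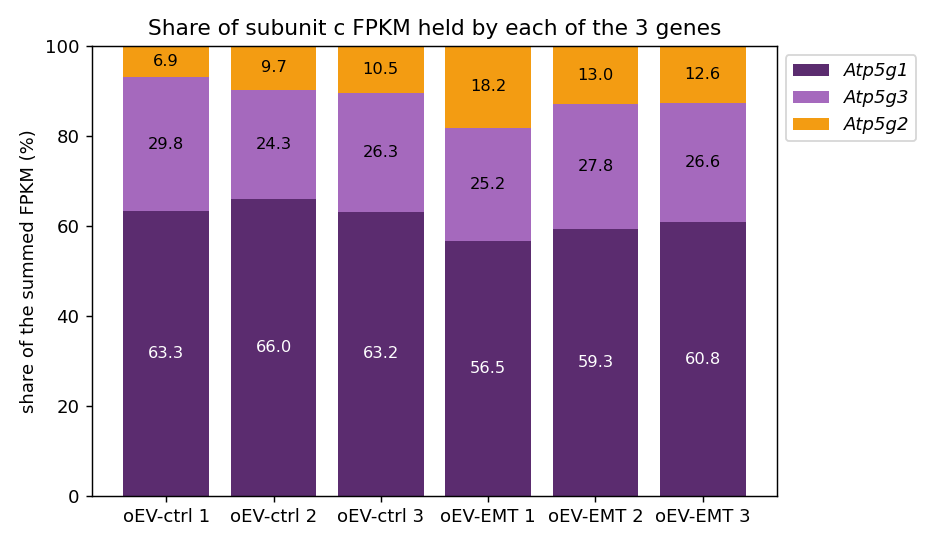
Share of the summed FPKM of *Atp5g1*, *Atp5g3* and *Atp5g2* held by each (percent, stacked bars from 0 to 100) in each of the 6 libraries. The *Atp5g2* part is 12.6% to 18.2% in oEV-EMT and 6.92% to 10.5% in oEV-ctrl, with a smaller *Atp5g1* part in every oEV-EMT library.

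In oEV-ctrl the mean levels ran from *Atp5h* and *Atp5g1* through *Atp5l*, *Atp5f1*, *Atp5k*, *Atp5g3*, *Atp5j* and *Atp5j2* to *Atp5g2*. Neighbours in this order did not overlap at 3 steps, from *Atp5g1* to *Atp5l*, from *Atp5l* to *Atp5f1* and from *Atp5j2* to *Atp5g2*. In oEV-EMT the order was *Atp5h*, *Atp5g1*, *Atp5f1*, *Atp5g3*, *Atp5l*, *Atp5g2*, *Atp5j2*, *Atp5j* and *Atp5k*, with separate ranges from *Atp5g1* to *Atp5f1*, from *Atp5g3* to *Atp5l* and from *Atp5l* to *Atp5g2*. *Atp5k* moved from the fifth place to the last. Both orders are of the FPKM as listed, and places of genes with copies elsewhere in the genome, described below, may depend on how reads were split. Summed with 2 such copies, *Atp5g2* had a mean of 464 FPKM in oEV-ctrl, above the listed 388 FPKM of *Atp5j2*. The levels were high in both groups, and each of the 9 ranked among the 575 most abundant of the 11924 genes.

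Several of the 9 genes have processed pseudogenes, copies of the spliced mRNA elsewhere in the genome, whose reads the counting may have split. Of the stretches of 50 bases in the coding transcripts of *Atp5l*, 84.8% occur in 14 other listed genes, 12 of them pseudogenes. The share was 38.3% for *Atp5g2* (3 genes), 37.6% for *Atp5f1* (4 genes), 36.9% for *Atp5h* (18 genes), 11.1% for *Atp5g1* (361 genes) and 10.7% for *Atp5j* (2 genes). It was 2.75% for *Atp5j2*, 1.08% for *Atp5k* and 0% for *Atp5g3*. The value of *Atp5k* thus rests almost wholly on sequence of its own. Its 2 coding transcripts are 272 and 371 bases long, about the size of the cDNA fragments that the study selected. What this did to its FPKM was not tested. *Atp5g1* held the smallest part of the FPKM summed over itself and its partners, from 10.3% to 13.6%. Only 8 of its 361 partners are pseudogenes, and each partner enters with its whole FPKM, however few stretches it shares. This sum had a relative log2 difference of -0.21 with overlap, where *Atp5g1* alone had -0.39, and does not measure split reads.

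*Gm10221*, the pseudogene that shares 52.5% of the stretches of *Atp5l*, was listed at 482, 484 and 649 FPKM in oEV-EMT and 714, 979 and 705 FPKM in oEV-ctrl, about as high as *Atp5l* itself. It was lower in every oEV-EMT library, as were *Atp5l2-ps*, *Gm4045*, *Atp5l-ps1* and *Gm4853*, and the other 4 genes that share at least 10% of the stretches were listed under 1 FPKM. *Atp5l* held from 37.7% to 49.2% of the FPKM summed over itself and its 14 partners. The sum was 1005 ± 131 FPKM in oEV-EMT and 1778 ± 323 FPKM in oEV-ctrl (SD, n = 3 each), without overlap, and its relative log2 difference was -0.99 where that of *Atp5l* alone was -1.26.

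The same held in the other direction for *Atp5g2*. Its pseudogenes *Gm10175* (208 ± 33.4 against 145 ± 35.1 FPKM) and *Gm10231* (164 ± 22.6 against 116 ± 26.3 FPKM; SD, n = 3 each) were higher in every oEV-EMT library in the values as deposited. Summed with its 3 partners, *Atp5g2* had a relative log2 difference of 0.39. With both pseudogenes counted, its share of subunit c was 27.4 ± 3.49% in oEV-EMT and 18.5 ± 3.52% in oEV-ctrl (SD, n = 3 each), again without overlap. The sum of *Atp5j* with its partners differed by -1.04 on the relative log2 scale, and *Atp5h* and its pseudogene *Gm10250* both overlapped.

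**Figure D3:**
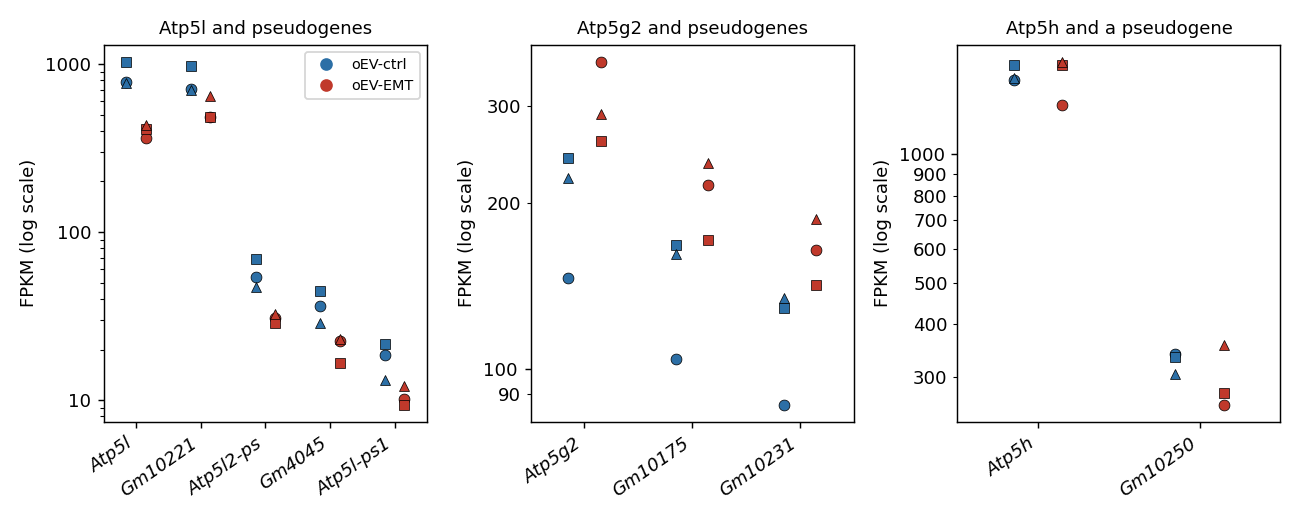
FPKM (log axes) of *Atp5l*, *Atp5g2* and *Atp5h* and of the most abundant pseudogenes that share at least 10% of their 50-base stretches, in oEV-ctrl (blue) and oEV-EMT (red), with circles, squares and triangles for replicates 1, 2 and 3. The 4 plotted copies of *Atp5l* lie lower in oEV-EMT like *Atp5l*, *Gm10175* and *Gm10231* lie higher like *Atp5g2*, and *Gm10250* overlaps like *Atp5h*.

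The RT-PCR primer pair of the study for *Atp5l* is shown because the same copies bear on it. The study chose *Atp5l* for RT-PCR from the genes that its own sequencing analysis called differentially expressed. Its discussion names *Atp5l*, *Atp5j* and *Atp5k* and describes a down-regulated series of genes. By this RT-PCR the study reported no statistical difference in *Atp5l*. Whether the copies had a part in that result was not tested.
Atp5l forward primer: gttcatccgtaacttcgc
Atp5l reverse primer: caccaaaccattcagcac
Both primers match the *Atp5l* mRNA exactly, with a product of 229 bases from position 90 to position 318 of the 544-base transcript, and with a product of 68 bases on a shorter one. Both also match *Gm10221* and *Atp5l2-ps* exactly, with a product of 229 bases in each. *Gm10221* was listed at 538 ± 95.8 FPKM in oEV-EMT and 799 ± 155 FPKM in oEV-ctrl (SD, n = 3 each).

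*Atp5k*, *Atp5l* and *Atp5j* have short mRNAs, with a median coding transcript of 321.5, 544 and 711 bases. *Atp5h* (625 bases) and *Atp5g2* (683 bases) lie between *Atp5l* and *Atp5j* in length, and their groups overlapped or lay the other way. Coding genes of up to 400 bases had a median relative log2 fold change of -0.17, with 80% of the 47 genes between -1.01 and 0.37, and *Atp5k* lay below that range at -1.51. For 400 to 600 bases the same range over 408 genes ran from -0.57 to 0.49, with *Atp5l* at -1.26, and for 600 to 800 bases it ran over 901 genes from -0.36 to 0.47, with *Atp5j* at -1.16. With the trend of fold change on length removed by an offset, the relative values were -1.34 for *Atp5k*, -1.22 for *Atp5l* and -1.18 for *Atp5j*. *Atp5j*, *Atp5k* and *Atp5l* were singled out for their low values, so their places below these ranges follow in part from that choice. Whether transcript length had a part in their lower values was not tested.

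**Figure D4:**
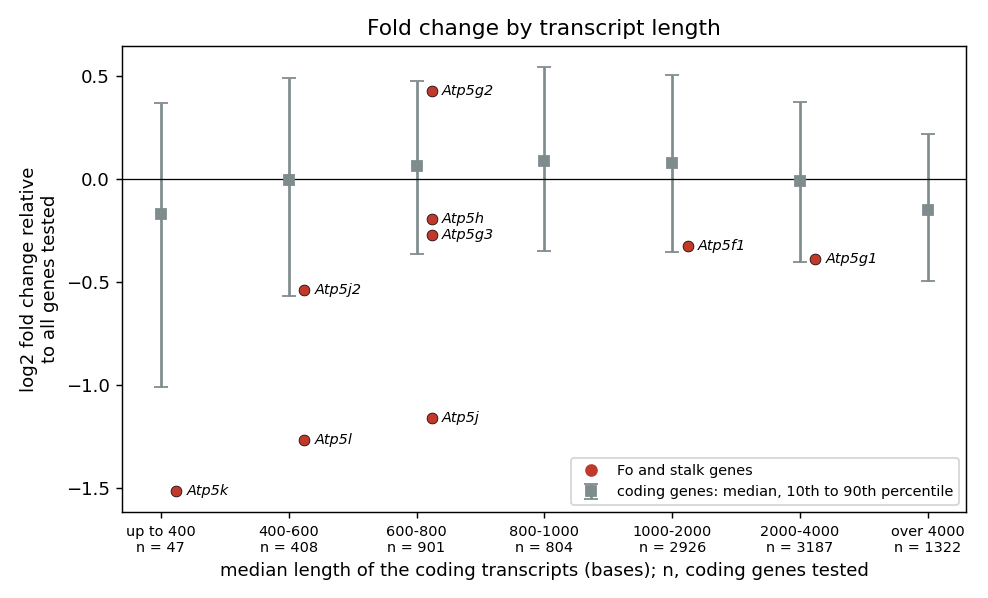
Log2 fold change relative to the median of all genes tested (vertical axis) by median coding transcript length (horizontal axis, bases). Grey squares and bars give the median and the 10th to 90th percentile of the coding genes in each length class, and red points the 9 genes, of which *Atp5k*, *Atp5l* and *Atp5j* lie below the bar of their class.

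Other ATP synthase genes, listed by their part of the enzyme, were set beside the 9. Of the 6 genes for F1 and its inhibitor, 0 passed the test over all genes (limma), and the relative median was -0.31. At an unadjusted limma p of at most 0.05, 1 was lower in oEV-EMT, where 2.55% of all genes were. *Atp5b* and *Atp5a1*, for the catalytic and noncatalytic subunits of the head, had relative log2 fold changes of -0.07 and -0.14, and the shaft subunit gene *Atp5c1* had -0.17. The genes for the small foot subunits of the shaft, *Atp5d* and *Atp5e*, had -0.46 and -0.66, with overlap. *Atpif1*, which encodes the inhibitor of ATP hydrolysis, was at 390, 391 and 302 FPKM in oEV-EMT and 454, 526 and 467 FPKM in oEV-ctrl, the only 1 of the 6 without overlap (relative log2 fold change -0.60, limma, adjusted p = 0.319). Without a filter on low values *Atp5b* and *Atp5a1* changed sign, to 0.08 and 0.01, as did *Atp5b* with library quality weights, at 0.10.

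The mean log2 level of the 9 genes exceeded that of the 5 F1 subunits by 0.41 ± 0.14 in oEV-EMT and by 0.69 ± 0.16 in oEV-ctrl (SD, n = 3 each), and the groups overlapped. The overlap came from 1 pair of libraries, oEV-EMT 3 at 0.574 and oEV-ctrl 1 at 0.564.

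Of the remaining nuclear genes of the membrane sector and stalk, *Atp5o* (the cap of the stalk, OSCP), *Usmg5* and *2010107E04Rik* (small accessory proteins) had relative log2 fold changes of -0.10, -0.39 and -0.54, all with overlap. *mt-Atp6* and *mt-Atp8*, the subunits of the membrane sector that mitochondrial DNA encodes, were lower in every oEV-EMT library. *mt-Atp6*, which encodes the proton channel beside the c ring, had 6731, 6672 and 9742 FPKM in oEV-EMT and 16049.6, 13682 and 11135 FPKM in oEV-ctrl. Its relative log2 fold change was -0.999 and that of *mt-Atp8* was -0.91 (limma, adjusted p = 0.164 for both). Of the 50-base stretches of *mt-Atp6*, 99.5% occur in 2 other listed genes, whereas 0% of those of *mt-Atp8* do.

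Genes for factors that assemble the enzyme lay on both sides. *Tmem242* was at 61.3, 71.8 and 91.9 FPKM in oEV-EMT and 48.2, 48.3 and 39.3 FPKM in oEV-ctrl, without overlap (relative log2 fold change 0.53, limma, adjusted p = 0.194). *Tmem70*, for a factor that helps to build the c ring, had 0.16, *Atpaf1* and *Atpaf2*, for chaperones of F1, had -0.23 and 0.18, and *Fmc1* had -0.27, all with overlap. Of the 5 genes, 0 passed the limma test over all genes. At an unadjusted limma p of at most 0.05, 1, *Tmem242*, was higher in oEV-EMT, where 12.8% of all genes were. None of the 16 other ATP synthase genes passed under any alternative fit.

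**Figure D5:**
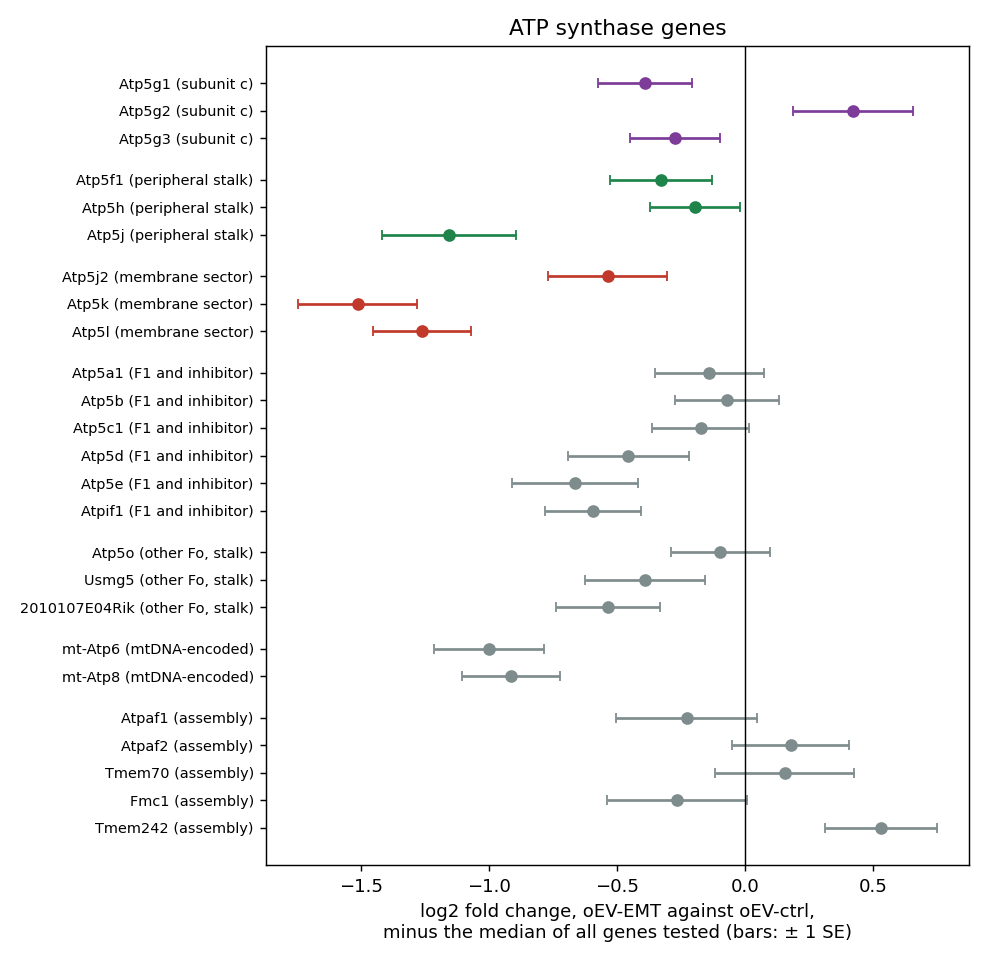
Log2 fold change of oEV-EMT against oEV-ctrl minus the median of all genes tested (horizontal axis, points) with 1 standard error (bars) for the 9 genes (coloured) and 16 other ATP synthase genes (grey). *Atp5k*, *Atp5l* and *Atp5j* lie furthest to the left with *mt-Atp6* and *mt-Atp8* next, and *Atp5g2* and *Tmem242* furthest to the right.

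The respiratory complexes that build the proton gradient were measured in the same fit. The relative median was -0.22 for 37 genes of complex I, 0.18 for 4 of complex II, -0.14 for 9 of complex III and -0.29 for 13 of complex IV. The groups were separate with oEV-EMT lower in 4, 0, 1 and 4 of these genes, against 4.34% of all genes tested. They were separate with oEV-EMT higher in 1, 2, 1 and 3, against 18.1% of all genes tested. The share of the 9 ATP synthase genes below, 3 of 9, was a count with no test against these.

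Over the 6 libraries, the tested genes outside these lists whose log2 levels were most like the mean of the 9 were *Dnajc19-ps* (Pearson r = 0.987), *Gm10039* (0.980), *Gm13835* (0.978), *Gm43593* (0.976) and *Rpl36a* (0.974), with Spearman values from 0.943 to 1. In the values as deposited all were lower in every oEV-EMT library, with relative log2 fold changes from -1.004 for *Rpl36a* to -0.42 for *Gm13835*. *Gm43593* was near the floor, at 0.80, 0.84 and 0.79 FPKM in oEV-EMT and 1.25, 1.86 and 1.34 FPKM in oEV-ctrl. It reached an FPKM of 1 in 3 libraries only through oEV-ctrl, so its separation is tied to the filter. The first 3 are processed pseudogenes, and *Rpl36a* encodes a protein of the cytosolic ribosome. *Gm10039* is not independent of the 9, since it holds 6.86% of the 50-base stretches of *Atp5g1* and was listed at a like level (1322 to 1905 FPKM). Among the 9, the closest pair was *Atp5j* with *Atp5k* (r = 0.94), and *Atp5g2* correlated negatively with each of the other 8 (r from -0.70 to -0.15). These values share the group difference and the scaling of each library, and describe 6 points.

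The libraries held trophectoderm and inner cell markers, with 8 of 8 trophectoderm, 5 of 5 epiblast and 5 of 5 primitive endoderm genes at a mean FPKM of at least 1. The summed epiblast markers ran from 81.7 to 103 FPKM in oEV-EMT and from 38.7 to 61.6 FPKM in oEV-ctrl, while the trophectoderm and primitive endoderm sums overlapped. In the values as deposited, the epiblast sum and the oocyte sum given next were higher in every oEV-EMT library, as were 18.1% of all genes tested. Of 5 oocyte markers only *Zp2* was detected, with a sum of 3.84 to 6.93 against 2.35 to 3.29 FPKM, and the mean of the other 4 was under 1. The summed cumulus markers reached at most 0.344 FPKM, the sperm markers 0.843 and the blood markers 2.22, with *Krt7* the only oviduct marker of 4 detected (sum of 11.5 to 29.8 against 16.3 to 27.6 FPKM). The part of the epiblast and oocyte markers in the values above was not tested. In pools of whole embryos, fewer cells of a type and less RNA per cell cannot be told apart. The FPKM of a library summed to between 1293175 and 1551567, of which an unannotated entry, new_gene48, held 15.3% to 31.5% and the 9 genes 0.384% to 0.556%. Read totals were not given, so the depth behind each value is unknown.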

How the data were processed

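RNA of 6 pools of blastocysts, 3 per group, was sequenced from oligo(dT)-selected RNA. The authors deposited 1 FPKM value per gene and library. Per the labels, reads were mapped to mm10 and StringTie was used, and the aligner was not given in the sources used here. TPM, the unit named in the methods, have the same sum in every library, which the deposited values do not, and they were read as FPKM. Values go down to 1e-06 without steps of whole reads, and no counts could be recovered.

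Samples were grouped by their titles. Genes that reached an FPKM of 1 in 3 or more libraries were fitted as log2(FPKM + 1) with limma 3.58.1 in R 4.3.3 (trended, robust variance), with Benjamini-Hochberg adjustment over 11924 genes. A call needed an adjusted p of at most 0.05 and a log2 fold change of at least 1 in size, the study's thresholds. The log2 scale with a pseudocount understates the change of low genes. The p-values measure the spread between pools, and the labels do not say whether pools share vesicle donors. Genes were named by rule: the 9 genes, the other ATP synthase lists, and the 5 genes most correlated with their mean. Members and lists were chosen with earlier results of these data known. Names, lengths and 50-base stretches came from GENCODE M21 (GRCm38), in which 55141 of 55487 identifiers were found, and starts from RefSeq. The symbol *Atp5o* has 2 identifiers, and the second, listed at 0 in every library, was not used. The fit was tested on simulated data. Alternatives covered scaling, pseudocount, filter, a replicate block, library weights, a length offset and each library left out. Sums with genes that share at least 10% of the stretches, and the subunit c share with pseudogenes, were added after seeing the data. RT-PCR and imaging data were not analysed here. matplotlib 3.10.9 and Python 3.11.15 drew the figures.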

Additional observations from a re-analysis of the deposited data

How the results depend on the processing

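The relative log2 fold changes of the 9 genes kept their direction in all 135 values, which count each gene once in each alternative fit. The replicate block could not change them, since it leaves fold changes as they are. All 12 sums with sequence partners, which were not tested, kept their direction too. In 132 of the 135 values the side of the threshold was also kept. The 3 exceptions passed it, *Atp5k* with the replicate block (-1.51, adjusted p = 0.0495, limma) and with library quality weights (-1.33), and *Atp5l* with the weights (-1.22, adjusted p = 0.0333). Over all alternatives the limma adjusted p ran from 0.0341 to 0.609 for *Atp5k*, 0.0333 to 0.609 for *Atp5l*, 0.104 to 0.616 for *Atp5j* and 0.168 to 0.674 for *Atp5g2*. The number of genes called was 0 in the reported fit, 21 with the replicate block and 104 with the weights, and ran from 0 to 17 with 1 library left out (17 without oEV-ctrl 3, 4 without oEV-EMT 1, 1 without oEV-EMT 3). None of the 9 was among them when a library was left out. Deviations of same-numbered libraries from their group means had r = 0.12, -0.04 and 0.04, and those of differently numbered libraries ran from -0.13 to 0.12. With 3 libraries per group this cannot show whether same-numbered libraries share a batch or donors. The block changed no other call among the 9 genes.

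The number of the 9 genes lower in every oEV-EMT library was 5 after upper quartile scaling and with the length offset, where 12.5% and 9.8% of all genes tested were. It ran from 3 to 6 with 1 library left out (6 without oEV-EMT 3, where *Atp5g1*, *Atp5g3* and *Atp5f1* joined and 6.15% of all genes were lower). *Atp5j*, *Atp5k* and *Atp5l* were among them in every setting, but only the scalings and the length offset could have removed them. The pseudocount, filter, block and weights leave the compared values as they are. Leaving out a library cannot make separate groups overlap. The relative median of the 9 ran from -0.50 to -0.29 with 1 library left out and was -0.24 without a filter. The share of subunit c held by *Atp5g3* changed sign with 1 library left out, between -1.51 and 1.26 percentage points, while that of *Atp5g1* stayed between -6.25 and -4.13 and that of *Atp5g2* between 3.72 and 6.53. With its pseudogenes counted, an alternative added after seeing the data, the difference for *Atp5g2* was 8.93. Among the other named genes, 306 of 315 values kept their direction. Without a filter *Atp5a1* (0.0097), *Atp5b* (0.080) and *Atp5o* (0.054) changed sign, as did *Atp5b* (0.10) and *Fmc1* (0.012) with the weights. With 1 library left out, *Atp5b* ran from -0.21 to 0.032, *Atpaf1* from -0.39 to 0.023 and *Tmem70* from -0.064 to 0.49. The causes were not tested. Depth is unknown and sets no limit that can be stated here.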
